A study of Oryza sativa Indica Group with 12 samples.

Results

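The loops held by H3K9me2 and those held by H3K4me3 were compared within the rice variety ZS97, from its 2 lists of ChIA-PET loops on chromosomes 1 to 12. The comparison took in 6933 H3K9me2 loops and 12279 H3K4me3 loops, which together made up 19212 of the 64726 loops in the 6 lists of the series. The members were all rows of both lists, and no measured value was used to choose them. The series mapped chromatin interactions in young leaves of 2-week-old seedlings of ZS97 (Zhenshan 97) and MH63 (Minghui 63), both Oryza sativa Indica Group, with antibodies against H3K9me2, H3K4me3 and RNA polymerase II (RNAPII). All leaves were fixed with both formaldehyde and EGS (ethylene glycol bis(succinimidylsuccinate)), and no treatment set the groups apart. Of the 12 libraries, 4 entered the comparison: 2 replicates of ZS97 H3K9me2 and 2 replicates of ZS97 H3K4me3. Replicates were joined before loops were called, so there was 1 list per target, no value had a spread between replicates, and no test between the targets could be made. Intervals of shares are Wilson 95% intervals and hold no more than the counting error. Other values are given with their range over the 12 chromosomes.

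In plants, dimethylation of histone H3 at lysine 9 (H3K9me2) marks silent heterochromatin. It is laid down on transposons and other repeats by SUVH-type methyltransferases, which are guided by non-CG DNA methylation, and it is densest around centromeres. Trimethylation at lysine 4 (H3K4me3) marks the promoters and 5' ends of transcribed genes. ChIA-PET enriches cross-linked chromatin with an antibody and ligates DNA ends held in the same complex, so a loop in these lists joins 2 stretches of DNA (its anchors) that both lay in peaks of the same mark. A loop therefore records contact between regions of 1 mark, and a contact between a H3K9me2 region and a H3K4me3 region has no place in either list.

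Among loops within a chromosome, the only kind in these lists, those of H3K9me2 were fewer, longer and set on wider anchors. The study's library summary also counts ZS97 loops between chromosomes, with more of them for H3K9me2 than for H3K4me3. The 6933 H3K9me2 loops joined 3286 anchors with a median width of 9.98 kb (quartiles 5.11 and 18.0 kb), against 11960 H3K4me3 anchors with a median width of 1.52 kb (quartiles 1.25 and 1.97 kb). H3K9me2 anchors covered 49.2 Mb, or 14.2% of the 346.5 Mb that the ZS97 lists spanned, and H3K4me3 anchors covered 20.1 Mb, or 5.79%. The span of a loop, taken between anchor midpoints, had a median of 116 kb for H3K9me2 (quartiles 42.8 and 347 kb) and 17.5 kb for H3K4me3 (quartiles 11.6 and 29.9 kb). Loops over 1 Mb made up 12.9% of the H3K9me2 list (894 loops) and 0.652% of the H3K4me3 list (80 loops). The number of paired-end tags that joined the anchors of a loop (its PET count) began at 4 in both lists, with a median of 8 and a highest value of 396 for H3K9me2 and a median of 5 and a highest value of 70 for H3K4me3. PET counts summed to 95474 over the H3K9me2 loops and to 76602 over the H3K4me3 loops. Per the study's library summary the H3K9me2 library also held more inter-ligation PETs, so the depth of the libraries and the target cannot be told apart in these sums or in the numbers of loops.

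The strongest loop of each list shows the difference in scale. For H3K9me2 it joined chr3:18582629-18644326 with chr3:18650973-18790144 by 396 PETs over 107 kb, in ZS97 coordinates as are all positions here. For H3K4me3 it joined chr7:21960230-21963183 with chr7:21984922-21987919 by 70 PETs over 24.7 kb.

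Along the chromosomes the marks took opposite places. H3K9me2 loops were densest around 1 maximum on each chromosome, where H3K4me3 loops were sparse, and most H3K4me3 loops lay in bins with few H3K9me2 loops. Each chromosome was cut into 1 Mb bins, 353 in all, and loops were counted by their midpoint. In 90 bins (25.5%) there were at least 2 times as many H3K9me2 as H3K4me3 loops, and in 217 bins (61.5%) at least 2 times as many H3K4me3 as H3K9me2 loops. The 90 bins rich in H3K9me2 held 78.4% of all H3K9me2 loops and 4.69% of all H3K4me3 loops, with medians of 43.5 H3K9me2 and 6 H3K4me3 loops per bin. The 217 bins rich in H3K4me3 held 8.86% of the H3K9me2 loops and 88.9% of the H3K4me3 loops, with medians of 2 H3K9me2 and 47 H3K4me3 loops. The bins were sorted by these same counts, so the contrast of the marks within each class is in part by construction. Only 46 bins lay within 2-fold of an even count. No bin lacked both marks, while 56 bins had no H3K9me2 loop and 3 had no H3K4me3 loop.

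Over the 353 bins, the Spearman rho of the H3K9me2 and H3K4me3 counts was -0.69. It was negative within 12 of the 12 chromosomes, from -0.86 on chromosome 5 to -0.49 on chromosome 11. This is a description: neighbouring bins are not independent, long loops are counted at a midpoint that can lie far from both anchors, and both counts of a bin share its mappable length. The 35 bins with the most H3K9me2 loops, 56 to 235 each, held 53.3% of that list and 1.72% of the H3K4me3 list, and their H3K4me3 counts ran from 0 to 20.

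**Figure D1:**
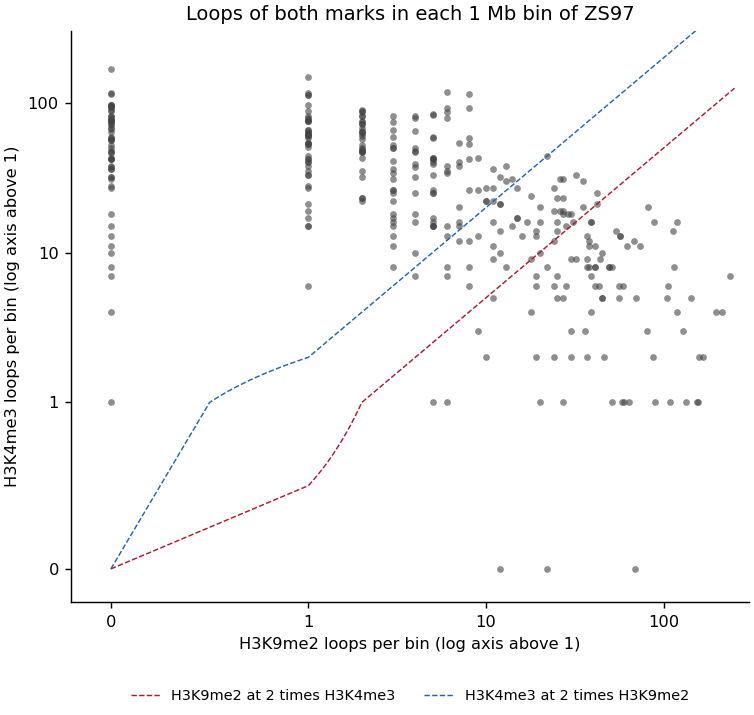
Each point is 1 of the 353 bins of 1 Mb, with its number of H3K9me2 loops on the horizontal axis and of H3K4me3 loops on the vertical axis, both logarithmic above 1 loop. The 90 bins on or below the red line had at least 2 times as many H3K9me2 loops, the 217 on or above the blue line at least 2 times as many H3K4me3 loops, and few bins were high in both.

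H3K9me2 loops fell off around their densest bin, more sharply on some chromosomes than on others. That bin was chosen as the highest, so a fall beside it is in part by construction. Its fuller neighbour held 155 H3K9me2 loops beside 157 on chromosome 4 and 197 beside 213 on chromosome 3, but 105 beside 235 on chromosome 6. The bin with the most H3K9me2 loops held 88 (chromosome 1) to 235 (chromosome 6) of them, with a median of 138 over the 12 chromosomes, while the same bins held 1 to 16 H3K4me3 loops, with a median of 4.5. At 1 Mb to either side the mean was 78.2 H3K9me2 and 7.71 H3K4me3 loops per bin. At 5 Mb the means were close, with 15.8 H3K9me2 and 19.5 H3K4me3 loops, and at 10 Mb they were 4.57 H3K9me2 and 54.7 H3K4me3 loops. Thus the mean of H3K9me2 fell mostly within 2 Mb of the maximum, and the gain of H3K4me3 was spread over 10 Mb or more. The 5 Mb window with the most H3K9me2 loops on each chromosome, 60 Mb or 17.3% of the extent in all, held 65.6% of the H3K9me2 loops and 3.79% of the H3K4me3 loops. Per chromosome that window held 52.8% (chromosome 8) to 76.7% (chromosome 3) of the H3K9me2 loops and 0.905% (chromosome 4) to 9.62% (chromosome 12) of the H3K4me3 loops. Of the 90 bins rich in H3K9me2, 55 lay in these windows and 35 outside them, with 1031 H3K9me2 loops, and on 6 chromosomes the rich bins formed more than 1 stretch, up to 4. Centromere positions were not used here, so these maxima are placed by the loops alone.

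**Figure D2:**
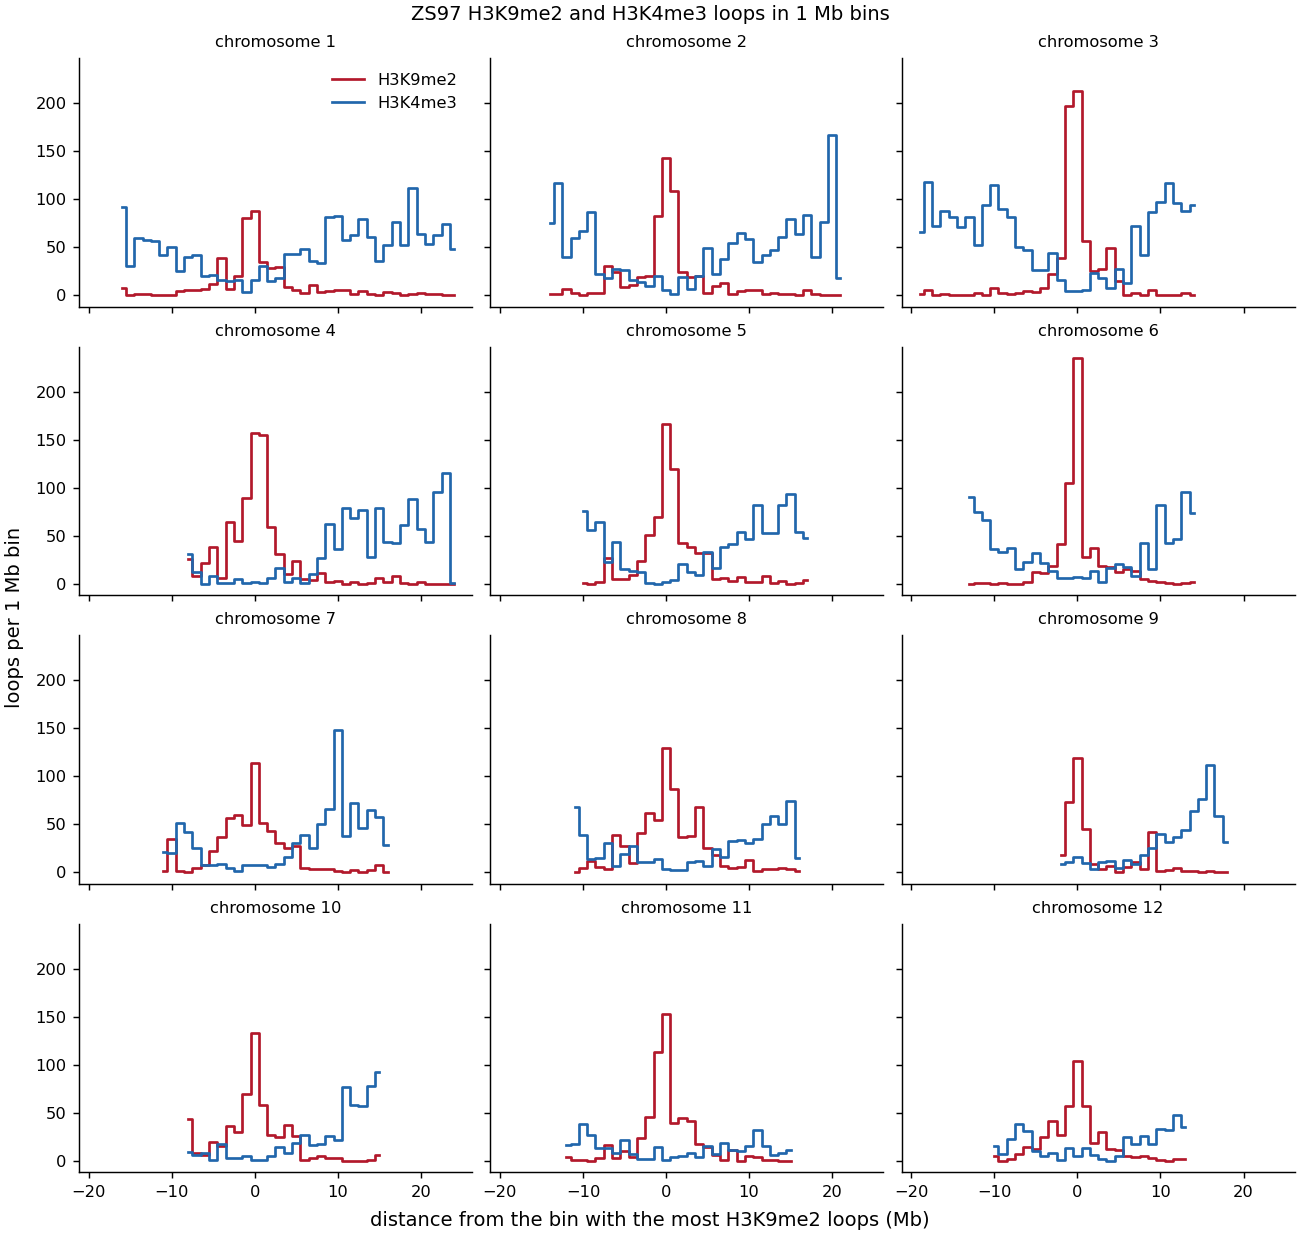
Loops per 1 Mb bin of H3K9me2 (red) and H3K4me3 (blue) on each of the 12 chromosomes, against the distance in Mb from the bin with the most H3K9me2 loops. On every chromosome the red line peaks at 0, by construction, at 88 to 235 loops, where the blue line stands at 1 to 16 loops.

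The densest bins of the marks lay far apart on most chromosomes. On chromosome 6, H3K9me2 was highest at 13 to 14 Mb, with 235 H3K9me2 and 7 H3K4me3 loops, and H3K4me3 was highest at 26 to 27 Mb, with 1 H3K9me2 and 96 H3K4me3 loops. On chromosome 3, the H3K9me2 maximum at 19 to 20 Mb held 213 H3K9me2 and 4 H3K4me3 loops, and the H3K4me3 maximum at 1 to 2 Mb held 6 H3K9me2 and 118 H3K4me3 loops. On chromosome 2, the H3K9me2 maximum at 14 to 15 Mb held 143 H3K9me2 and 5 H3K4me3 loops, and the H3K4me3 maximum at 34 to 35 Mb, near the end of the chromosome, held 0 H3K9me2 and 167 H3K4me3 loops. Across the 12 chromosomes, the bin with the most H3K4me3 loops held 0 to 6 H3K9me2 loops and 38 to 167 H3K4me3 loops. On chromosome 9 the H3K9me2 maximum lay near the start, at 2 to 3 Mb, with 119 H3K9me2 and 16 H3K4me3 loops, and the H3K4me3 maximum lay at 18 to 19 Mb, with 1 H3K9me2 and 112 H3K4me3 loops.

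Both marks were frequent in few bins. Ranked by the lower of the 2 counts, the first bin was at 15 to 16 Mb of chromosome 5, with 32 H3K9me2 and 33 H3K4me3 loops, followed by 17 to 18 Mb of chromosome 1 (35 H3K9me2 and 30 H3K4me3 loops) and 16 to 17 Mb of chromosome 7 (27 H3K9me2 and 31 H3K4me3 loops). These bins lay 5, 1 and 5 Mb from the H3K9me2 maximum of their chromosome.

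Whole chromosomes differed more in H3K4me3 than in H3K9me2 loops. H3K9me2 loops per Mb ran from 10.6 on chromosome 1 to 25.9 on chromosome 8, and H3K4me3 loops per Mb from 12.8 on chromosome 11 to 59.7 on chromosome 3. The ratio of H3K9me2 to H3K4me3 loops had a median of 0.642, a lowest value of 0.223 on chromosome 1 (429 H3K9me2 and 1925 H3K4me3 loops) and a highest value of 1.61 on chromosome 11 (564 H3K9me2 and 350 H3K4me3 loops). Chromosome 12 also had more H3K9me2 than H3K4me3 loops (445 of H3K9me2 and 416 of H3K4me3). On chromosomes 8 and 10 the ratios were 0.992 and 0.977. These ratios depend on how many loops were called for each target.

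Anchors of the marks rarely met. Of the 3286 H3K9me2 anchors, 172 overlapped a H3K4me3 anchor by at least 1 bp (5.23%, interval 4.52 to 6.05%), and of the 11960 H3K4me3 anchors, 179 overlapped a H3K9me2 anchor (1.50%, interval 1.29 to 1.73%). Per chromosome the share ran from 2.45% (chromosome 4) to 9.22% (chromosome 5) of H3K9me2 anchors and from 0.923% (chromosome 3) to 2.75% (chromosome 12) of H3K4me3 anchors. H3K9me2 anchors covered 14.2% of the extent but held the midpoints of 66 H3K4me3 anchors, 0.552% of them, and on 12 of the 12 chromosomes the share of H3K4me3 anchors that overlapped was lower than the share of the chromosome that H3K9me2 anchors covered. The shared sequence came to 115 kb, or 0.235% of H3K9me2 and 0.575% of H3K4me3 anchor bases.

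Most overlaps were shallow. Of the 179 overlapping H3K4me3 anchors, 26 (14.5%) lay wholly inside a H3K9me2 anchor and 111 (62.0%) were covered by under 50%, and the median overlap was 0.527 kb. No H3K9me2 anchor had its midpoint inside a H3K4me3 anchor. Among H3K9me2 anchors, 162 met 1 H3K4me3 anchor and 10 met 2, the most for any anchor. Of those 10, the one named by PET count was chr12:11054187-11124170, 70.0 kb wide with 18 partners, where partners are the anchors at the other ends of an anchor's loops.

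H3K9me2 anchors that overlapped were wider than the others and had stronger loops. The highest PET count of an anchor's loops had a median of 14 for the overlapping H3K9me2 anchors and 9 for the rest. Those that overlapped had a median width of 15.4 kb, against 9.62 kb for the 3114 that did not overlap, and 55.8% of them, against 49.0%, had 3 or more partners. The share that overlapped was 1.12% of the 805 H3K9me2 anchors under 5 kb, 3.33% of those of 5 to 10 kb, 8.82% of those of 10 to 20 kb, 6.80% of those of 20 to 40 kb and 9.09% of the 209 anchors of 40 kb or more. H3K4me3 anchors that overlapped differed little in width from the others (medians 1.46 and 1.53 kb), and 16.8% of them, against 26.8%, had 3 or more partners.

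Nearly all of the overlaps were lost once the outermost part of every anchor was trimmed. The authors extended ChIP-seq peaks by ±10% before using them as anchors, which was read here as 10% of the peak's width on each side. The peaks themselves were not used here, so that reading could not be checked. With 8.33% trimmed from each side of every anchor, which undoes such an extension, 2 H3K9me2 anchors (0.0609%, interval 0.0167 to 0.222%) and 2 H3K4me3 anchors (0.0166%, interval 0.00456 to 0.0607%) still overlapped. This alternative was chosen after seeing the data. With 2%, 4% and 6% trimmed, 120, 71 and 24 H3K9me2 anchors and 125, 71 and 24 H3K4me3 anchors overlapped. The same trimming left the overlap of H3K4me3 with RNAPII anchors nearly as it was, at 28.1%, against 30.0% as listed. It brought that of H3K9me2 with RNAPII anchors to 1.004% (33 H3K9me2 anchors), against 3.56% as listed. A trim by a share of the width takes fewer bases from H3K4me3 and RNAPII anchors than from H3K9me2 anchors. Their median widths were 1.52, 1.78 and 9.98 kb, so these changes cannot be set against each other.

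**Figure D3:**
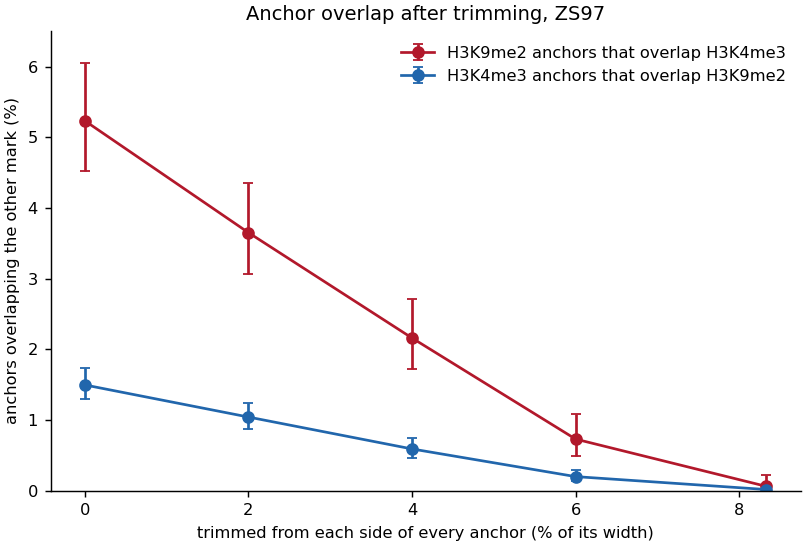
Share of H3K9me2 anchors that overlapped a H3K4me3 anchor (red) and of H3K4me3 anchors that overlapped a H3K9me2 anchor (blue), in percent, against the part trimmed from each side of every anchor in percent of its width; bars are Wilson 95% intervals. As listed, 5.23% of H3K9me2 and 1.50% of H3K4me3 anchors overlapped, and after 8.33% was trimmed 0.0609% and 0.0166% of them.

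The 2 overlaps that remained were H3K4me3 anchors deep inside very wide H3K9me2 anchors. On chromosome 5, the H3K4me3 anchor chr5:11069963-11071450 lay 37.8 kb from the nearer edge of chr5:11032128-11113716, a H3K9me2 anchor of 81.6 kb with 32 partners. On chromosome 6, the H3K4me3 anchor chr6:13629538-13630937 lay 15.4 kb from the nearer edge of chr6:13544198-13646316, a H3K9me2 anchor of 102 kb with 29 partners.

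H3K9me2 anchors had H3K4me3 anchors as neighbours more closely than the reverse. The median distance, edge to edge, from a H3K9me2 anchor to the nearest H3K4me3 anchor was 42.7 kb (quartiles 7.72 and 139 kb), and from a H3K4me3 anchor to the nearest H3K9me2 anchor 145 kb (quartiles 41.6 and 353 kb). The medians of the chromosomes ran from 13.8 kb (chromosome 1) to 105 kb (chromosome 11) from H3K9me2 to H3K4me3, and from 60.8 kb (chromosome 12) to 238 kb (chromosome 4) from H3K4me3 to H3K9me2. H3K4me3 anchors were the more numerous. Loops with a PET count of at least 6 were 4908 for H3K9me2 and 5129 for H3K4me3, on 2456 H3K9me2 and 6710 H3K4me3 anchors, and gave medians of 114 kb from H3K9me2 to H3K4me3 and 302 kb from H3K4me3 to H3K9me2. To the nearest anchor of the same mark, the medians were 7.70 kb for H3K9me2 and 5.76 kb for H3K4me3.

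The distances had long tails in both directions. Over 100 kb from the other mark lay 31.8% of the H3K9me2 anchors (interval 30.3 to 33.4%) and 58.9% of the H3K4me3 anchors (interval 58.0 to 59.8%), while 15.2% of H3K9me2 anchors and 5.03% of H3K4me3 anchors had a gap of under 5 kb. Among H3K9me2 anchors, 59.3% of those over 100 kb from H3K4me3 had 3 or more partners, against 37.5% of those with a gap of under 5 kb and 55.8% of those that overlapped. Among H3K4me3 anchors, these shares were 29.0% over 100 kb, 20.6% under 5 kb and 16.8% for overlapping anchors.

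The H3K9me2 anchor farthest from H3K4me3, chr4:2173638-2187254, lay 833 kb away from it. The H3K4me3 anchor farthest from H3K9me2, chr4:32011220-32012128, lay 2889 kb away, at the end of the same chromosome. The widest H3K9me2 anchor with no H3K4me3 anchor within 100 kb was chr7:8587448-8720224, 133 kb wide with 11 partners.

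H3K4me3 anchors were far sparser inside H3K9me2 anchors than just outside them, and farther out their density climbed slowly. H3K4me3 anchors numbered 1.34 per Mb inside H3K9me2 anchors (exact Poisson 95% interval 1.04 to 1.71, by midpoint), 25.9 per Mb within 1 kb outside them (interval 22.0 to 30.3) and 23.9 per Mb at 2 to 5 kb. From there it was 28.4 per Mb at 10 to 20 kb, 34.1 at 20 to 50 kb, 49.7 at 200 to 500 kb and 57.8 beyond 500 kb, against 34.5 per Mb over all of the extent. Inside H3K9me2 anchors the density was not even and was lowest away from the edge. Of the 66 H3K4me3 midpoints inside as listed, 31, 10, 5 and 2 were still inside with 2%, 4%, 6% and 8.33% trimmed. The H3K9me2 anchors still covered 41.0 Mb at 8.33%, against 49.2 Mb as listed. Density was lower inside than just outside in each kind of bin. In bins rich in H3K9me2 there were 0.907 H3K4me3 anchors per Mb inside H3K9me2 anchors, 14.2 in the first 5 kb outside and 12.1 farther away. In bins rich in H3K4me3 these values were 2.95, 46.3 and 51.1 per Mb. On 12 of the 12 chromosomes the density inside, 0.415 to 2.45 per Mb, was lower than that in the first 5 kb outside, 15.7 to 38.3 per Mb. Over all bins of a chromosome, the first 5 kb outside was also lower than the ground farther away on 12 of the 12 chromosomes. Within bins rich in H3K9me2 the first 5 kb was the higher of the pair, over 200 H3K4me3 anchors. In the 46 mixed bins the values were close (25.3 and 23.7 per Mb), the first over 126 anchors. No interval was computed for the densities by kind of bin, so these small differences may be counting error.

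**Figure D4:**
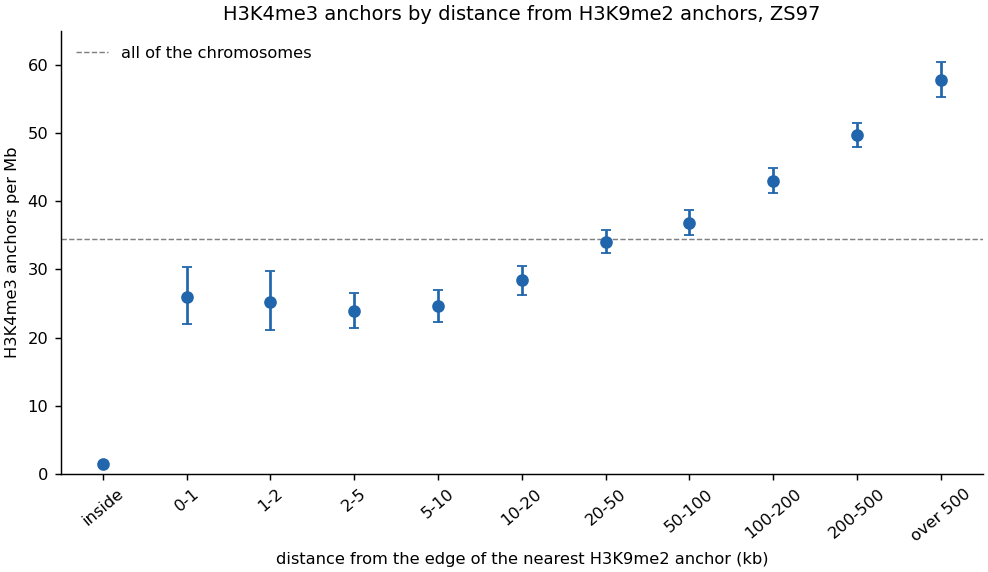
H3K4me3 anchors per Mb (points, with exact Poisson 95% intervals) by the distance in kb of their midpoint from the edge of the nearest H3K9me2 anchor; the dashed line is the value over the whole extent, 34.5 per Mb. The density was 1.34 per Mb inside H3K9me2 anchors, 25.9 just outside and 57.8 beyond 500 kb.

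Runs of consecutive anchors of 1 mark were longer for H3K4me3, the mark with more anchors. Runs of the marks alternate along a chromosome, so their numbers are nearly equal by construction. Their mean lengths, 3.03 anchors for H3K9me2 and 10.95 for H3K4me3, therefore follow the numbers of anchors. Read along the chromosomes, the next anchor was of the same mark for 67.0% of H3K9me2 and 90.9% of H3K4me3 anchors, while H3K9me2 made up 21.6% and H3K4me3 78.4% of all anchors. Anchors fell into 1085 H3K9me2 runs with a median of 1 anchor and 1092 H3K4me3 runs with a median of 3 anchors. Single anchors made up 51.2% of the H3K9me2 and 27.1% of the H3K4me3 runs, while runs of at least 10 anchors held 37.1% of H3K9me2 and 79.8% of H3K4me3 anchors. The longest H3K9me2 run in number had 43 anchors at chr4:9044506-10097795, and the longest in length had 38 anchors over 1.55 Mb at chr5:8617824-10164930. The longest H3K4me3 run had 334 anchors over 3.68 Mb at chr3:28502017-32185015.

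Nesting depended on the loops over 1 Mb, a minority of each list: 894 H3K9me2 and 80 H3K4me3 loops. Of these, 890 H3K9me2 loops enclosed a H3K4me3 loop and 75 H3K4me3 loops enclosed a H3K9me2 loop. A loop was counted as inside another when both of its anchor midpoints lay between those of the other, and as crossing it when exactly 1 did. A loop could hold several such positions. With loops of any length, 78.1% of H3K9me2 loops lay inside a H3K4me3 loop and 87.7% of H3K4me3 loops inside a H3K9me2 loop (10769 loops, interval 87.1 to 88.3%). With loops of up to 1 Mb in both lists (6039 H3K9me2 and 12199 H3K4me3 loops), those shares were 5.98% of H3K9me2 loops and 12.7% of H3K4me3 loops (1545 H3K4me3 loops, interval 12.1 to 13.3%). Of all H3K4me3 loops, 9224 (75.1%) lay inside H3K9me2 loops over 1 Mb alone. Loops over 1 Mb had a median span of 4.05 Mb and a longest span of 36.4 Mb for H3K9me2, and a median of 7.74 Mb and a longest span of 32.9 Mb for H3K4me3, and their median PET counts were 5 for H3K9me2 and 4 for H3K4me3.

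Among loops of up to 1 Mb the marks were mostly separate. No loop of the other mark enclosed, lay inside or crossed 57.9% of H3K9me2 loops (interval 56.6 to 59.1%) and 83.3% of H3K4me3 loops (interval 82.6 to 83.9%). H3K9me2 loops, the longer and fewer, enclosed more often: 27.0% enclosed at least 1 H3K4me3 loop, while 2.32% of H3K4me3 loops enclosed a H3K9me2 loop. The contrast was smaller within classes of span, although the loops to be enclosed still differed in number and span between the marks. Up to 50 kb the shares were 3.87% of H3K9me2 and 0.877% of H3K4me3 loops. In that class spans were not alike: 641 of 1988 H3K9me2 and 7038 of 11064 H3K4me3 loops spanned up to 20 kb. At 50 to 200 kb they were 25.8% of H3K9me2 and 15.3% of H3K4me3 loops. At 200 kb to 1 Mb they were 56.9% of H3K9me2 and 35.5% of H3K4me3 loops, the last over 62 loops. Enclosing H3K9me2 loops had a median span of 242 kb, against 61.8 kb for the others. Crossing was seen for 19.3% of H3K9me2 loops (interval 18.4 to 20.4%) and 5.85% of H3K4me3 loops (interval 5.45 to 6.28%). The H3K4me3 loops that crossed had a median span of 38.6 kb, against 16.7 kb for the rest, and those inside H3K9me2 loops had one of 17.2 kb, against 17.4 kb for the rest. With loops of up to 200 kb, 69.9% of H3K9me2 and 89.7% of H3K4me3 loops were apart from all loops of the other mark.

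**Figure D5:**
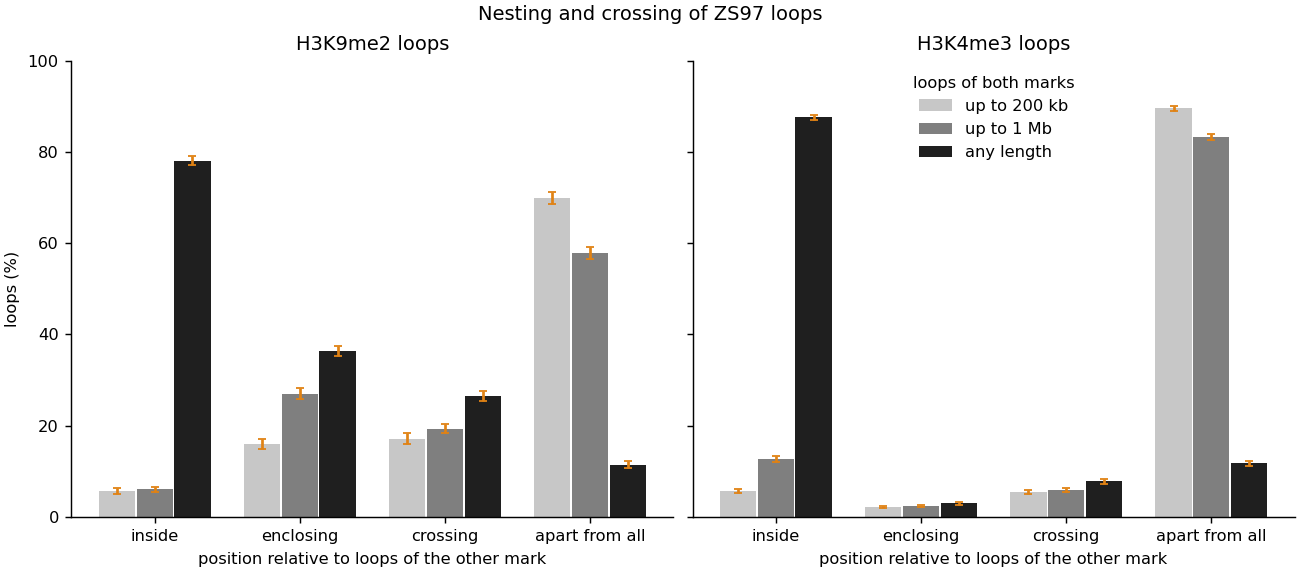
Share of H3K9me2 loops (left) and H3K4me3 loops (right), in percent, that lay inside, enclosed, crossed or were apart from loops of the other mark, for loops of up to 200 kb, up to 1 Mb and any length in both lists; bars carry Wilson 95% intervals in orange. The share of H3K4me3 loops inside a H3K9me2 loop was 12.7% with loops of up to 1 Mb and 87.7% with loops of any length.

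Nesting was uneven among chromosomes and loops. With loops of up to 1 Mb, 7.92% (chromosome 3) to 27.9% (chromosome 12) of H3K4me3 loops lay inside a H3K9me2 loop, with a median of 11.9%. A nested H3K4me3 loop lay under a median of 1 and at most 63 H3K9me2 loops, and an enclosing H3K9me2 loop held a median of 2 and at most 41 H3K4me3 loops. The H3K9me2 loop that enclosed 41 joined chr5:17136009-17162851 with chr5:18132637-18149636 by 8 PETs over 992 kb. The H3K4me3 loop that enclosed the most H3K9me2 loops, 31, joined chr5:10793691-10795195 with chr5:11069963-11071450 by 5 PETs over 276 kb, and its right anchor was the one deep inside the H3K9me2 anchor of chromosome 5 described above.

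Loops of each mark also passed over anchors of the other. Among loops of up to 1 Mb, 35.8% of H3K9me2 loops (2162) had at least 1 H3K4me3 anchor between their anchors, and 6.94% of H3K4me3 loops (847) had a H3K9me2 anchor between theirs. Both shares went up with span. For H3K9me2 the share was 6.71% of loops of up to 20 kb, 17.9% at 20 to 50 kb, 34.5% at 50 to 200 kb and 63.7% at 200 kb to 1 Mb. For H3K4me3 the shares at these spans were 1.72%, 9.44%, 29.2% and 53.2%, the last over 62 loops. H3K9me2 loops over H3K4me3 anchors had a median PET count of 8, against 9 for those without.

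Between the anchors of H3K9me2 loops, H3K4me3 anchors were at an intermediate density. There were 1.34 per Mb in H3K9me2 anchors, 23.2 per Mb between the anchors of H3K9me2 loops of up to 1 Mb and 46.6 per Mb outside these loops. By coverage, loops of up to 1 Mb spread over 131 Mb (37.9% of the extent) for H3K9me2 and 142 Mb (41.0%) for H3K4me3. Both marks covered 32.4 Mb, which was 24.6% of the H3K9me2 and 22.8% of the H3K4me3 coverage.

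Few loops rested on overlapping anchors. Among H3K9me2 loops, 6123 (88.3%) had no anchor that overlapped H3K4me3, 757 had 1 and 53 had both. Among H3K4me3 loops, 11979 (97.6%) had none, 280 had 1 and 20 had both. Loops of the marks that overlapped each other at both ends formed 12 pairs, of 12 H3K9me2 and 10 H3K4me3 loops, and 0 pairs with the anchors trimmed by 8.33%. In the pair with the highest summed PET count, chr2:13679210-13742481 was joined with chr2:13750418-13764855 by 114 H3K9me2 PETs, and chr2:13739261-13740728 with chr2:13749214-13750902 by 4 H3K4me3 PETs. The next pairs shared the H3K4me3 loop of chr6:13629538-13630937 with chr6:13664303-13665661, of 4 PETs, and 2 H3K9me2 loops of chr6:13544198-13646316, of 83 and 64 PETs. After them came a pair on chromosome 12 with 38 H3K9me2 and 8 H3K4me3 PETs, over 142 kb for H3K9me2 and 94.3 kb for H3K4me3. It was followed by 1 of several pairs on chromosome 5, with 32 H3K9me2 and 5 H3K4me3 PETs. The H3K4me3 loop of that pair was the one that enclosed 31 H3K9me2 loops. It was also in another pair, with a H3K9me2 loop of 8 PETs. The H3K9me2 loop had the higher PET count in 11 of the 12 pairs. In the other pair, on chromosome 9, the H3K9me2 loop had 4 PETs and the H3K4me3 loop 12. PET counts were also higher for H3K9me2 over the whole lists (medians 8 and 5), so 11 of 12 cannot be read as a trait of these pairs.

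The RNAPII list of ZS97 gives a rough scale for these overlaps. Its PET counts began at 6, against 4 in the H3K9me2 and H3K4me3 lists, so the thresholds are unlike. RNAPII, the enzyme that transcribes protein-coding genes, shares promoters with H3K4me3. RNAPII anchors overlapped 3.56% of H3K9me2 anchors (117, interval 2.98 to 4.25%) and 30.0% of H3K4me3 anchors (3593, interval 29.2 to 30.9%). Of the 172 H3K9me2 anchors that met H3K4me3, 30 (17.4%, interval 12.5 to 23.8%) also met RNAPII, against 87 of the other 3114 (2.79%, interval 2.27 to 3.43%). With trimmed anchors, 1 of the same 172 anchors (0.581%, interval 0.103 to 3.22%) and 32 of the other 3114 (1.03%, interval 0.729 to 1.45%) met RNAPII. The 172 were chosen by their overlap with H3K4me3, and after the trimming only 2 H3K9me2 anchors still had one. The trimmed values therefore cannot decide whether that difference holds.

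The same measures in MH63, whose lists have coordinates of their own, are given beside those of ZS97 with no test. H3K9me2 anchors overlapped H3K4me3 for 5.23% in ZS97 and 5.33% in MH63, and H3K4me3 anchors overlapped H3K9me2 for 1.50% in ZS97 and 1.74% in MH63. After 8.33% was trimmed, 2 H3K9me2 anchors still overlapped in ZS97 and 8 in MH63. The rho of loop counts over 1 Mb bins was -0.69 in ZS97 and -0.73 in MH63, and bins with at least 2 times as many H3K9me2 as H3K4me3 loops made up 25.5% in ZS97 and 30.5% in MH63. H3K4me3 loops inside a H3K9me2 loop came to 87.7% in both varieties with loops of any length, and to 12.7% in ZS97 and 9.41% in MH63 with loops of up to 1 Mb.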

How the data were processed

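Loop lists of 4 ZS97 libraries (2 replicates each of H3K9me2 and H3K4me3) were compared; groups came from the library titles. The authors filtered linkers, mapped tags to the ZS97 genome from RIGW, removed redundant PETs, joined the replicates and called clusters with an updated ChIA-PET Tool (version not given in the sources used here) between ChIP-seq peaks widened on both sides. The deposited PET counts are unscaled counts of inter-ligation PETs per loop. The deposited p-value and FDR of each loop come from the authors' program; the FDR reached 0.0499 for H3K9me2 and 0.000442 for H3K4me3 and was not filtered further. The lists hold intrachromosomal loops and no library totals. The study's library summary gives totals, none of which was used as a value here, so depth is given as PETs in loops. The lists of MH63 and of RNAPII were used for scale. The columns of p-values, 1 in each of the 6 lists, were not used.

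Starts are printed counted from 1. Overlapping intervals of a list were joined into 1 anchor (59 H3K4me3 intervals and no H3K9me2 interval were absorbed). The extent of a chromosome was the last anchor end in the 3 ZS97 lists. Overlap took at least 1 bp. Shares have Wilson and densities exact Poisson 95% intervals. A value was called moved under an alternative when it left that interval, or, for medians and rho, when it moved by over 1 SD of the 12 chromosomes. Alternatives were a PET count of at least 6, the 5000 loops with the highest PET counts, loops of up to 1 Mb, an overlap of 50%, intervals not joined, midpoint distances, other loop ends, bins of 0.5 and 2 Mb, anchors or PETs counted in bins, and trimmed anchors. The members, measures and lists were chosen with earlier results of these data known. Loci were named by rule: the highest PET count in each list; the anchor overlapping the most; the widest H3K9me2 anchor with no H3K4me3 within 100 kb; the farthest anchors; the loops enclosing the most; the 5 pairs overlapping at both ends with the highest summed PET count; the longest runs; the fullest bins per mark; and the 3 bins highest in both. The chromosome 9 pair and the 2 overlaps left after trimming were named after their values were seen. The work was done in Python 3.11.15 with scipy 1.17.1, numpy 2.4.6 and pandas 2.3.3, figures were drawn with matplotlib 3.10.9, and the code was tested on simulated loops with known overlaps and positions.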

Additional observations from a re-analysis of the deposited data

Results flagged for a closer look

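The ZS97 H3K9me2 list held 1 loop outside chromosomes 1 to 12, which no comparison used. It had a PET count of 10, a span of 85.6 kb and an FDR of 0.000988, and 42.4% of the H3K9me2 loops on the chromosomes had a PET count at least as high. It was singled out because it lies outside the data compared.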

How the results depend on the processing

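Of 47 values recomputed, 20 stayed within the spread or interval of the value as reported, and 27 moved; the rho over bins, the only one that could change sign, stayed negative in each of its alternatives. With a PET count of at least 6, H3K9me2 and H3K4me3 anchors overlapped for 2.69% and 0.984%, the median distances were 114 and 302 kb, 67.6% of H3K4me3 loops lay inside a H3K9me2 loop, 7.29% of H3K9me2 and 3.55% of H3K4me3 loops crossed, and 30.3% of bins were rich in H3K9me2. With the 5000 loops of highest PET count per list these values were 2.63% and 1.005%, 114 and 291 kb, 67.6%, 7.14% and 3.74%, and 30.6%. With loops of up to 1 Mb, the distance from H3K4me3 to H3K9me2 was 218 kb, 12.7% of H3K4me3 loops were nested, and 19.3% of H3K9me2 and 5.85% of H3K4me3 loops crossed. Where 50% of the anchor had to be covered, the overlaps were 0% of H3K9me2 anchors (interval up to 0.117%), which are mostly far wider than H3K4me3 anchors, and 0.569% of H3K4me3 anchors. By outer anchor ends, 29.2% of H3K9me2 and 8.48% of H3K4me3 loops crossed. With anchors counted in place of loops, 15.6% of bins were rich in H3K9me2. Trimmed anchors, an alternative chosen after seeing the data, overlapped for 0.0609% of H3K9me2 and 0.0166% of H3K4me3 anchors; with them the overlap of H3K9me2 with RNAPII and the pairs overlapping at both ends were also recomputed, after seeing the data. These alternatives change the loops, anchors or ends that are counted; beyond that the cause was not tested.

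The 2 replicates of a target could not be set against each other or left out in turn, since the lists hold them joined. No paired analysis was possible because each list was called on both replicates together. The lists show depth only as PETs in loops, so pairs of regions below 4 PETs are not seen, and the absence of a loop was not detectable beyond that. No gene, repeat or centromere annotation of ZS97 was used here.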
